A study of Mus musculus with 6 samples.

Results

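The genes described here encode the machinery of the lysosome, the acidic compartment in which cells break down proteins, glycans and lipids. They were 37 genes chosen by name: 6 membrane proteins, 9 proteases, 8 glycosidases, 7 proteins of lipid breakdown, 4 parts of the proton pump and 3 transcription factors. All 37 were found among the 29018 genes of the deposited table, and all 37 passed the filter on low counts (18221 genes did). The RNA came from osteoblasts of the calvaria (the flat bones over the brain) of neonatal mice, which had been put through osteogenic differentiation in culture. The groups were wild type (WT) and knockout (KO) for NDR1, a serine/threonine kinase encoded by Stk38, with 3 libraries each. The labels gave neither the strain, sex, allele design and differentiation time, nor whether replicates were separate animals or cultures, so the spread behind each p-value is that of these 6 libraries and may be technical. The comparison of KO with WT bears on autophagy, which the series title names, because autophagic cargo is broken down in lysosomes.

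Lysosomal enzymes are made in the endoplasmic reticulum, tagged with mannose 6-phosphate in the Golgi and carried to the lysosome, where a vacuolar proton pump keeps the pH low enough for them to work. Many of their genes carry a short palindrome in the promoter, the CLEAR element, which is bound by TFEB, TFE3 and MITF, a family of transcription factors that raise lysosomal gene expression when they enter the nucleus. Their activity is set largely by phosphorylation and location of the protein, so their mRNA level is not a measure of it. Bone-forming cells need lysosomes for autophagy and matrix turnover. Macrophages and osteoclasts are rich in lysosomes too and can be present in calvarial cultures.

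Stretches with the core of the CLEAR palindrome are shown for some of the genes described below. RefSeq promoter sequences (GRCm38.p6, 250 bases before to 50 after each start) matched 32 of the 37 genes. Ctsb, Ctsh, Asah1, Npc1 and Atp6v1h had no entry. The core CACGTG, searched on both strands, was in a promoter of 12 of the 32 genes (37.5%), beside 8.09% of the 27025 genes in the promoter table. The longer TCACGTGA, which contains that core, was in 6 of 32 (18.8%) beside 1.12% of all genes, and TCACGTG on either strand was in 10 (31.2%) beside 4.29%. A match describes letters only and is not evidence of binding. Stretches are shown only for matches wholly before the start. Gaa and Glb1, with TCACGTG there, are left out, and the TCACGTGA of Atp6v0d1 does not lie wholly before the start. The 250 bases before the start of Ctsd, the most abundant of the 37 genes, are given first (chr7:142387828-142388077, minus strand, 5′ to 3′), with its pair of CACGTG cores in capitals. Shorter stretches follow, with 1 match of the longest kind present in capitals (Lamp1 holds another TCACGTG, read on the other strand and left in lower case). These stretches hold TCACGTGA in Ctsa (chr2:164833740-164833772, plus strand), Gla (chrX:134601173-134601220, minus), Atp6v1a (chr16:44139364-44139411, minus) and Mcoln1 (chr8:3500453-3500500, plus), and the shorter TCACGTG in Naglu (chr11:101070000-101070046, plus) and Lamp1 (chr8:13159125-13159160, plus).
Ctsd: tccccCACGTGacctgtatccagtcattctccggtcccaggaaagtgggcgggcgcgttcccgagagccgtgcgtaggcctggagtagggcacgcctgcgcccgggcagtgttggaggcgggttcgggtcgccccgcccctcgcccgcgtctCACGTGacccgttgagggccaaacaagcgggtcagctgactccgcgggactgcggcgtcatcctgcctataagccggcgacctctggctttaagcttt
Ctsa: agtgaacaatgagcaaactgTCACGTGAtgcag
Gla: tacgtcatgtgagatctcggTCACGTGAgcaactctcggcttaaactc
Atp6v1a: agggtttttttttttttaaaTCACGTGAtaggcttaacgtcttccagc
Mcoln1: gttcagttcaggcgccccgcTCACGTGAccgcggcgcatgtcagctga
Naglu: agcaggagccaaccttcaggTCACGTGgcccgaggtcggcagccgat
Lamp1: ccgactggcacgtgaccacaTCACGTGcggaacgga

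Library totals ran from 61461870 to 76159034 counts. Stk38, the targeted gene, had 50.3, 47.9 and 52.5 CPM in the KO libraries and 73.1, 77.4 and 79.4 CPM in WT. CPM put each count on a common library size after TMM scaling, which assumes that most genes do not differ. The KO level was 65.6% of WT (log2 change -0.61 ± 0.05, adjusted p = 8.10e-06 by edgeR and Benjamini-Hochberg). On log2(FPKM + 1) an exact two-sided permutation test of Stk38 gave p = 0.1, and a design of 3 against 3 cannot go lower. Among markers of the labelled cell type, Col1a2, a chain of type I collagen, was high (20295.7 ± 567 CPM in KO and 28885.6 ± 354 in WT, SD, n = 3). The entry of the osteocalcin gene Bglap was nearly empty (0.39 ± 0.182 and 0.732 ± 0.332 CPM). Its counts are uncertain because it has a near-identical copy, Bglap2. The value of Bglap2 is not given here, so the Bglap value does not give the level of osteocalcin mRNA. Of 12 osteoblast markers 7 fell and 1 rose, beside 11.7% and 11.2% of all genes tested. Their log2 changes ran from -1.19 to 1.39.

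The lysosomal genes spanned a wide range of levels. FPKM, which divide by transcript length and so allow genes to be compared, ran in WT from 441 ± 8.67 for Ctsd, the aspartic protease cathepsin D, to 1.08 ± 0.114 for Mitf (SD, n = 3). Psap, the precursor of the saposins that present lipids to their hydrolases, followed at 381 ± 0.588 FPKM, and Lamp1, the main glycoprotein of the lysosomal membrane, at 274 ± 4.02. Ctsd, Psap and Lamp1 made up 47.5% of the summed FPKM of the 37 genes in WT. The transcription factors were among the least abundant, with Tfe3 at 5.82 ± 0.232 and Tfeb at 1.98 ± 0.0762 FPKM. Replicates lay close together: the coefficient of variation of CPM within WT had a median of 2.62% (0.0252% to 12.2%), and within KO 2.70% (0.921% to 10.3%). The smallest count behind any value was 410 (Mitf) and the largest 121096 (Ctsd).

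**Figure D1:**
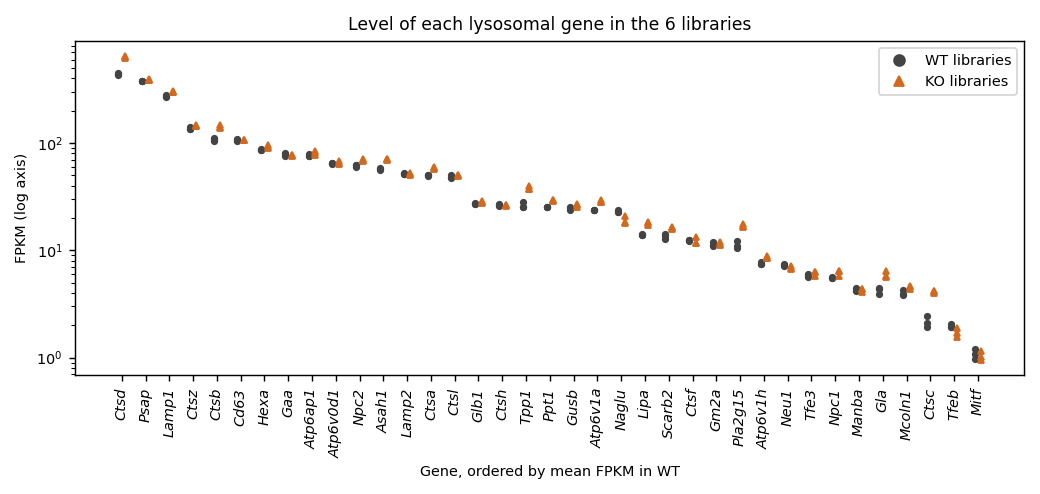
FPKM (log axis) of the 37 lysosomal genes in each library, ordered by mean WT level; circles are the 3 WT and triangles the 3 KO libraries. Levels fall from 441 FPKM for Ctsd to 1.08 FPKM for Mitf in WT, and Ctsd, Tpp1, Pla2g15, Gla and Ctsc show KO triangles set above the WT circles.

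In KO cultures 15 of the 37 lysosomal genes rose and 1 fell, while 21 were not called. The rises comprised 5 of 9 proteases, 5 of 7 proteins of lipid breakdown, 2 of 4 pump genes and 2 of 6 membrane proteins. Of the 8 glycosidases 1 rose and 1 fell, and none of the 3 transcription factors was called. Calls were made by the quasi-likelihood test of edgeR, at an adjusted p (Benjamini-Hochberg) under 0.05 over all 18221 genes, of which 22.9% were called, 11.2% as higher and 11.7% as lower. The median log2 change, KO over WT, was 0.05 over the 37 genes and 0.00 over all genes tested, and 23 of the 37 changes were above 0. On library totals these medians were 0.0942 and 0.0522, in limma on log2(FPKM + 1) they were 0.0916 and 0.0398, and without WT replicate 1 they were 0.0293 and 0.00535. In the same KO libraries 16 of 18 macrophage markers rose, from a summed level of 440 to 578 CPM in WT to 1128.7 to 1243.8 CPM in KO, and their part in the lysosomal rises was not tested. Lysosomal changes were small. Those that rose ran from 0.08 to 0.90 on the log2 scale with a median of 0.25, and with a fold of at least 1.5 required as well, 1 of the 15 (Ctsc) was left and Naglu was not. The split of calls over all genes depended on scaling (49.0% of calls higher with TMM, 63.0% on library totals without TMM), and on library totals 17 of the 37 genes rose and 1 fell. The KO values lay wholly apart from the WT values for 22 of the 37 genes, 16 above and 6 below, beside 38.2% of all genes tested.

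**Figure D2:**
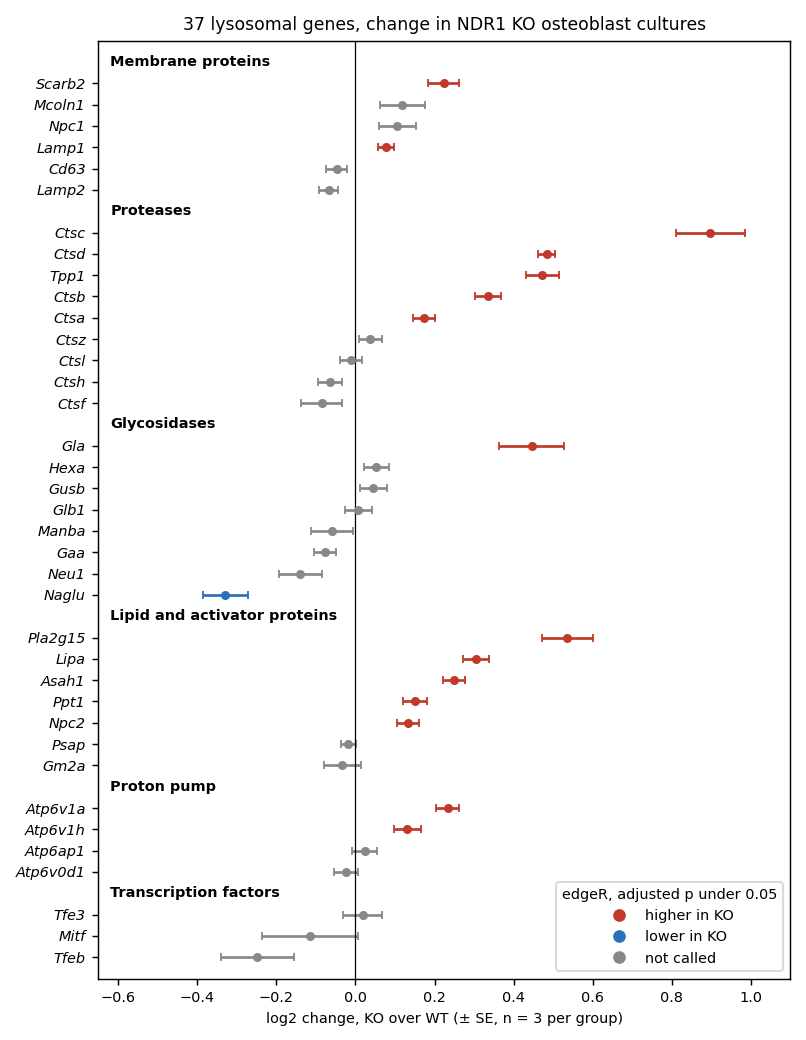
Log2 change in CPM, KO over WT, for the 37 lysosomal genes grouped by role; points are edgeR estimates, bars are SE, n = 3 per group, red marks genes higher in KO, blue lower and grey not called. Ctsc lies farthest right at 0.90 and Naglu farthest left at -0.33.

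Among the proteases, 5 of 9 rose. Ctsd stood at 1585, 1563.6 and 1546.9 CPM in the KO libraries and 1144, 1096.8 and 1116.4 CPM in WT. All KO libraries were above all WT libraries, and the SD within a group was 19.1 CPM in KO and 23.7 CPM in WT. The rise was 1.40-fold (log2 change 0.48 ± 0.02, edgeR, Benjamini-Hochberg adjusted p = 1.32e-07). Ctsd alone carried 50.7% of the net KO-minus-WT difference in the summed CPM of the 37 genes, which stood at 9437 ± 14.2 in KO and 8558 ± 84.3 in WT (exact two-sided permutation p = 0.1, the smallest possible).

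Ctsc, cathepsin C or dipeptidyl peptidase I, activates the granule serine proteases of immune cells and had the largest fold of the 37. It was read at 25.2, 24.3 and 25.8 CPM in KO and 15.3, 12.05 and 13.1 CPM in WT. The groups did not overlap, and the log2 change was 0.90 ± 0.09 (1.86-fold, edgeR, Benjamini-Hochberg adjusted p = 3.52e-05). At 2.14 ± 0.261 FPKM in WT it was the least abundant of the proteases. Tpp1, which removes tripeptides from the ends of proteins and is mutated in a childhood form of neuronal ceroid lipofuscinosis, stood at 212, 200.2 and 201 CPM in KO and 143, 142 and 157 CPM in WT (0.47 ± 0.04, adjusted p = 1.87e-05 in edgeR with Benjamini-Hochberg). Ctsb, the cysteine protease cathepsin B, stood at 869, 928 and 891 CPM in KO and 713, 682 and 734 CPM in WT (0.34 ± 0.03, adjusted p = 3.59e-05 in the same test). Ctsa, which shields beta-galactosidase and neuraminidase from degradation, stood at 292, 280.2 and 288 against 249.4, 256 and 258 CPM (0.17 ± 0.03, adjusted p = 0.001, edgeR, Benjamini-Hochberg). In each of these genes the lowest KO library was above the highest WT library.

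The other cathepsins were not called. Ctsl, cathepsin L, was at 337 ± 4.39 CPM in KO and 339.7 ± 10.3 in WT, and Ctsz, cathepsin Z, at 219 ± 2.53 and 214 ± 5.85 (SD, n = 3), with overlapping groups. Ctsh and Ctsf had log2 changes of -0.06 ± 0.03 and -0.09 ± 0.05. Without KO replicate 1, Ctsf was called as lower (-0.15, edgeR, Benjamini-Hochberg adjusted p = 0.0359). The cathepsins among the 37 thus included 4 that rose (Ctsa, Ctsb, Ctsc and Ctsd) and 4 not called.

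Of 7 proteins of lipid breakdown 5 rose. Pla2g15, the lysosomal phospholipase, stood at 52.8, 51.2 and 55.7 CPM in KO and 36.0, 34.1 and 40.1 CPM in WT. The groups were apart, and the log2 change was 0.54 ± 0.06 (1.45-fold, edgeR, Benjamini-Hochberg adjusted p = 1.62e-04). Lipa, the acid lipase that frees cholesterol and fatty acids from ingested lipid, was at 122, 127 and 130.4 CPM against 102, 102 and 103 CPM (0.30 ± 0.03, edgeR, Benjamini-Hochberg adjusted p = 7.56e-05). Asah1, acid ceramidase, was at 252, 247 and 252 CPM in KO and 215, 205 and 212 CPM in WT. Its log2 change was 0.25 ± 0.03 (edgeR, Benjamini-Hochberg adjusted p = 1.01e-04). Ppt1, which strips palmitate from proteins, and Npc2, the soluble carrier that hands cholesterol to the membrane protein NPC1, changed less. Ppt1 stood at 111, 111 and 114 CPM in KO and 102, 101 and 100.5 CPM in WT (0.15 ± 0.03, edgeR, Benjamini-Hochberg adjusted p = 0.0039). Npc2 stood at 383, 394 and 405 CPM in KO and 351, 364 and 364 CPM in WT (0.13 ± 0.03, edgeR, Benjamini-Hochberg adjusted p = 0.00701). In all 5 genes the KO libraries lay above the WT libraries.

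Psap and Gm2a encode non-enzymatic activators that lift lipids toward hydrolases, and neither was called. Psap, the second most abundant of the 37 in WT, stood at 1113.2 ± 14.9 CPM in KO and 1127.1 ± 0.284 in WT, a log2 change of -0.02 ± 0.02, while in FPKM, which carry no TMM scaling, its order turned (389 against 381). Gm2a stood at 49.5 ± 1.44 and 50.7 ± 1.93 CPM (SD, n = 3).

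Among the 8 glycosidases the calls went both ways. Gla, alpha-galactosidase A, the enzyme lacking in Fabry disease, lies on the X chromosome. It stood at 19.4, 19.6 and 22.3 CPM in KO and 15.7, 13.8 and 15.5 CPM in WT, with no overlap (0.45 ± 0.08, edgeR, Benjamini-Hochberg adjusted p = 0.00264). Naglu, the alpha-N-acetylglucosaminidase of heparan sulfate breakdown, was the single gene of the 37 that fell. It stood at 49.9, 57.5 and 50.9 CPM in KO and 65.2, 65.1 and 68.5 CPM in WT (-0.33 ± 0.06, edgeR, Benjamini-Hochberg adjusted p = 0.0018). KO replicate 2 was the nearest to WT and still below it. The remaining 6 glycosidases were not called. Gaa, the acid glucosidase that degrades glycogen, was at 383 ± 6.5 against 404 ± 11.03 CPM and Neu1, the sialidase, at 26.8 ± 0.797 against 29.5 ± 0.687 CPM (SD, n = 3). Both had KO libraries wholly below WT in CPM (edgeR, Benjamini-Hochberg adjusted p = 0.0708 and 0.0939), and in FPKM the Gaa groups overlapped. Gaa was called as lower by DESeq2 (adjusted p = 0.0216) and by edgeR without WT replicate 1 (adjusted p = 0.0471). Hexa, the beta-hexosaminidase alpha chain, was at 0.05 ± 0.03 on the log2 scale and was called as higher in edgeR on library totals and in limma on log2(FPKM + 1) (0.10 in both, adjusted p = 0.0327 and 0.0323), but not in limma on log2(FPKM + 1) without a filter (0.10, adjusted p = 0.066) or in DESeq2 (adjusted p = 0.284). Glb1, Gusb and Manba had log2 changes of 0.01, 0.05 and -0.06.

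Of 6 membrane proteins 2 rose, both by little. Scarb2, also called LIMP-2, the receptor that carries beta-glucocerebrosidase to the lysosome, stood at 104, 107 and 109 CPM in KO and 91.5, 87.0 and 95.4 CPM in WT. The groups were apart (0.22 ± 0.04, edgeR, Benjamini-Hochberg adjusted p = 0.00227). Lamp1 stood at 843, 825 and 840.2 CPM against 784, 804 and 791 CPM, a rise of 5.49% (0.08 ± 0.02, edgeR, Benjamini-Hochberg adjusted p = 0.0245). Lamp1 did not keep this call where KO replicate 1 or 3 or WT replicate 1 or 3 was left out (edgeR, Benjamini-Hochberg adjusted p = 0.108, 0.0774, 0.0805 and 0.0750). Lamp2, a relative of Lamp1 needed for fusion of autophagosomes with lysosomes and for chaperone-mediated autophagy, was at 509 ± 9.05 CPM in KO and 534 ± 10.9 in WT (SD, n = 3). Its KO libraries lay below WT in CPM and overlapped WT in FPKM, and its log2 change of -0.07 ± 0.03 was not called by edgeR (Benjamini-Hochberg adjusted p = 0.0816) but was by DESeq2 (adjusted p = 0.0256). Cd63, a tetraspanin of late endosomes, stood at 412 ± 5.00 and 426 ± 10.5 CPM. Mcoln1, the calcium channel TRPML1, and Npc1, the cholesterol exporter, had log2 changes of 0.12 ± 0.06 and 0.11 ± 0.05 with overlapping groups. Npc1 was called as higher without KO replicate 2 and in edgeR on library totals (log2 change 0.15 in both, Benjamini-Hochberg adjusted p = 0.0241 and 0.0327).

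Of the 4 pump genes, both members of the catalytic cytosolic sector rose. Atp6v1a, its ATP-hydrolysing subunit, stood at 187, 178 and 181 CPM in KO and 157, 154 and 154 CPM in WT. The log2 change was 0.23 ± 0.03 (edgeR, Benjamini-Hochberg adjusted p = 2.06e-04). Atp6v1h, the subunit that couples the sectors, stood at 85.7, 88.9 and 87.5 against 78.8, 79.0 and 81.4 CPM (0.13 ± 0.03, edgeR, Benjamini-Hochberg adjusted p = 0.017). That call was lost without KO replicate 2, WT replicate 1 or WT replicate 2 (edgeR, Benjamini-Hochberg adjusted p = 0.0533, 0.0669 and 0.0583). Atp6v0d1, of the membrane sector, and the accessory gene Atp6ap1 were not called, at 123 ± 2.89 against 125 ± 2.01 CPM and 255 ± 8.17 against 250.4 ± 5.74 CPM (SD, n = 3).

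The transcription factors that bind the CLEAR element were not called. Tfeb stood at 11.3, 9.18 and 10.2 CPM in KO and 12.7, 11.8 and 11.95 CPM in WT. Its KO libraries all lay below WT, with a log2 change of -0.25 ± 0.09 (edgeR, Benjamini-Hochberg adjusted p = 0.0879, and 0.0511 to 0.322 over 15 alternatives). Tfe3 stood at 60.6, 55.6 and 60.9 CPM in KO and 58.0, 56.1 and 60.8 CPM in WT, and Mitf at 7.37, 6.54 and 6.19 against 7.25, 6.50 and 8.02 CPM. The groups overlapped for both. Log2 changes were 0.02 ± 0.05 for Tfe3 and -0.12 ± 0.12 for Mitf. Of the 12 genes with CACGTG in a promoter 5 rose, 1 fell and 6 were not called, and of the 20 without it 7 rose and 13 were not called. Of the 6 with TCACGTGA, Ctsa, Ctsd, Gla and Atp6v1a rose, and Mcoln1 and Atp6v0d1 were not called. Of the 26 without it 8 rose, 1 fell and 17 were not called. Whether the motif and the calls are linked was not tested.

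**Figure D3:**
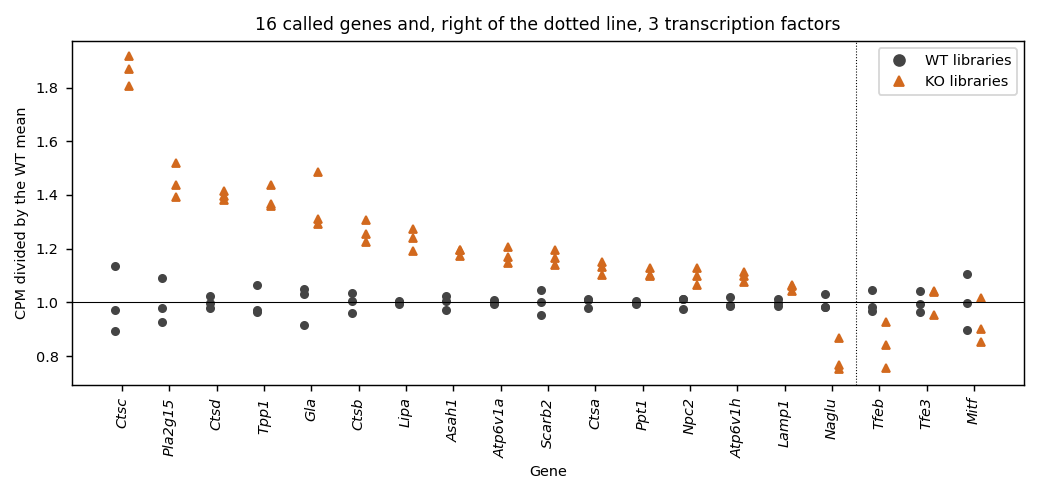
CPM in each library divided by the WT mean of the gene, for the 16 called genes and, right of the dotted line, Tfeb, Tfe3 and Mitf; circles are WT and triangles KO libraries, 3 each. KO and WT are apart in all 16 called genes and in Tfeb, and overlap in Tfe3 and Mitf.

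Lysosomal genes outside the 37 were called in both directions. Over 5 further lists with 103 genes in the table and 102 tested (hydrolases, membrane proteins, pump subunits, sorting and nutrient control), 25 rose and 13 fell, beside the 11.2% and 11.7% of all genes, with a median log2 change of 0.06. The deposited KEGG annotation marked 128 genes as lysosomal, 33 of them among the 37. Of its other 87 tested genes 25 rose and 10 fell.

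Of 30 further hydrolases 10 rose and 3 fell. Ctss, cathepsin S of antigen-presenting cells, rose from 15.7 ± 2.99 CPM in WT to 46.5 ± 2.71 in KO (1.56 ± 0.12), and Aga, which cleaves glycans from asparagine, rose by 0.34 ± 0.05. Ctsk, the collagen-degrading cathepsin K, fell from 298 ± 6.35 to 218 ± 3.77 CPM (-0.45 ± 0.03), and Siae, a sialic acid esterase, changed by -0.39 ± 0.05. The edgeR Benjamini-Hochberg adjusted p of these 4 were 5.87e-06, 3.30e-04, 1.11e-06 and 3.20e-04. Cathepsins thus moved in opposite directions, with Ctss and Ctsc up and Ctsk down. Of 23 further membrane genes 6 rose and 4 fell. Slc11a1, a metal transporter of phagocytes, Cd68 and Laptm5 rose by 1.31 ± 0.09, 1.38 ± 0.10 and 1.19 ± 0.12, and the last pair are also on the macrophage list. Hgsnat, which acts beside Naglu in heparan sulfate breakdown, rose by 0.44 ± 0.04. Adjusted p of these 4 in edgeR with Benjamini-Hochberg were 1.83e-06, 3.67e-06, 5.42e-05 and 4.08e-05.

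In enzyme sorting, 6 of 17 genes rose and 3 fell. Both mannose 6-phosphate receptors rose, Igf2r by 0.25 ± 0.02 (369 ± 3.28 against 310.2 ± 1.02 CPM) and M6pr by 0.16 ± 0.03. Sumf1, which activates sulfatases, rose by 0.22 ± 0.04. Sort1, the sorting receptor sortilin, and Lyst, a regulator of lysosome size, changed by -0.27 ± 0.04 and -0.44 ± 0.07. Adjusted p in edgeR with Benjamini-Hochberg were 2.04e-05, 0.00444, 0.00227, 5.25e-04 and 9.20e-04 in that order. Of 14 nutrient control genes 1 rose and 1 fell, beside 11.2% and 11.7% of all genes tested, so calls were no more frequent there. Zkscan3, described as a repressor of lysosomal genes, rose from 55.2 ± 4.73 to 79.1 ± 1.46 CPM (0.52 ± 0.06), and Flcn, folliculin, which promotes phosphorylation of TFEB by mTORC1, fell from 44.2 ± 3.79 to 34.9 ± 1.17 CPM (-0.34 ± 0.07). Their edgeR Benjamini-Hochberg adjusted p were 8.97e-05 and 0.00348.

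Of 18 further pump genes tested 2 rose and 2 fell, close to the 11.2% and 11.7% of all genes tested. Atp6v0a2 rose by 0.18 ± 0.03 and Tcirg1, the pump subunit of osteoclasts, by 0.27 ± 0.07, while Atp6v0a4 fell by 1.42 on the log2 scale at a low level (1.38 ± 0.266 against 3.68 ± 0.774 CPM). Adjusted p in edgeR with Benjamini-Hochberg were 0.00153, 0.0166 and 0.00107. Atp6v0c, the proteolipid that forms the rotor of the pump, stood at 121, 123 and 119 CPM in KO and 200.4, 206 and 192 CPM in WT (-0.72 ± 0.03, edgeR, Benjamini-Hochberg adjusted p = 1.51e-07). Its counts are uncertain, because a processed copy, Atp6v0c-ps2 on chromosome 6, matched an Atp6v0c transcript over all of its 465 bases with 1 mismatch (99.8% identity, GENCODE M21 transcripts). Atp6v0c-ps2 stood at 100.7, 95.4 and 102 CPM in KO and 13.0, 12.9 and 11.5 CPM in WT (2.99 ± 0.06, edgeR, Benjamini-Hochberg adjusted p = 1.15e-09). Summed over gene and copy, the KO libraries had 222, 218 and 221 CPM and the WT libraries 213, 219 and 203 CPM. The sums overlapped between groups (means 220.1 ± 1.96 and 212 ± 7.96, log2 ratio 0.05), so the lower Atp6v0c value came with a higher value of like size for the copy. The sources used here do not give how reads that fit both were assigned.

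**Figure D4:**
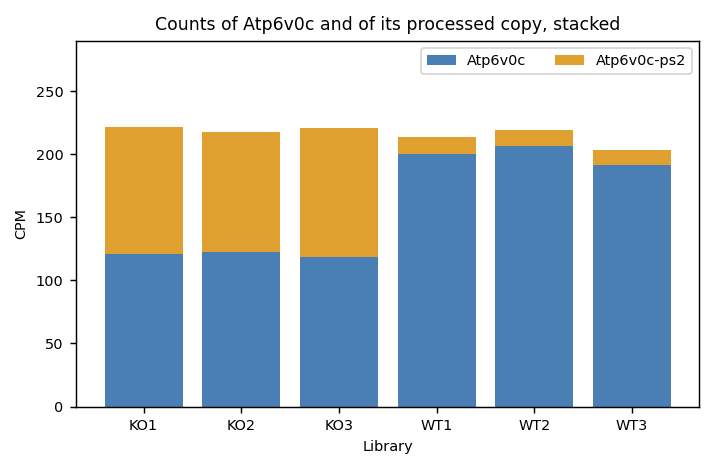
CPM of Atp6v0c (blue) and of its processed copy Atp6v0c-ps2 (orange), stacked, in each of the 6 libraries. The blue part is lower in the KO libraries and the orange part higher, while the stacked totals, 218 to 222 CPM in KO and 203 to 219 CPM in WT, overlap.

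The macrophage markers had a median log2 change of 1.35, and of the 18 Aif1 alone had a library at 0. The complement gene C1qc was at 27.0 ± 0.81 CPM in KO and 8.97 ± 1.45 in WT, C1qb at 30.1 ± 1.51 against 10.8 ± 1.57 and Cd68 at 34.8 ± 2.57 against 13.3 ± 1.80 (SD, n = 3). In libraries of whole cultures, more cells of a type and more RNA per cell cannot be told apart. Within WT, replicate 2 had the lowest level of 15 of the 18 macrophage markers, of 9 of the 15 lysosomal genes that rose in KO and of 11 of the other 22. Within KO, replicate 3 was lowest for 12 of the 18 markers, for 1 of the 15 lysosomal genes and for 8 of the other 22. Genes of the same library are not independent, and these counts were not tested. The osteoclast list had 10 genes, of which 2 rose (Tcirg1 among them), 3 fell and 5 were not called. Their log2 changes ran from -5.27 to 1.05 with a median of 0.07. The summed level of the list, which includes Ctsk, ran from 339 to 349.7 CPM in KO and from 569 to 574 in WT. The osteoclast gelatinase Mmp9 stood at 3.72 ± 0.593 against 144 ± 7.76 CPM, and the fusion gene Ocstamp was near 0 (0.0739 and 0.268 CPM). Mmp9 and Ctsk, which were both lower in KO, held most of the summed WT level, so the sum does not describe the other osteoclast genes. Melanocyte markers, which accompany high Mitf, summed to 2.27 ± 0.131 CPM in KO and 2.44 ± 0.53 in WT.

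**Figure D5:**
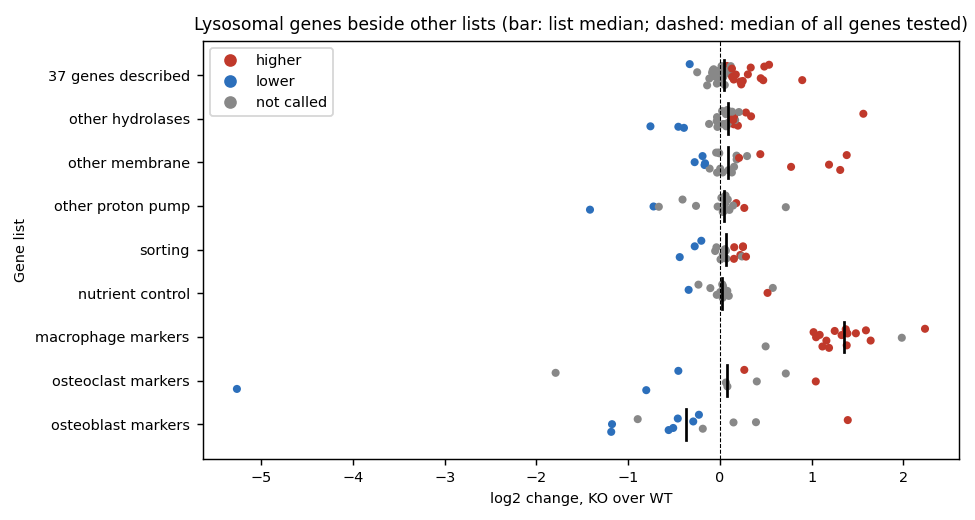
Log2 change, KO over WT, of each tested gene in the 37 lysosomal genes, 5 further lysosomal lists and 3 marker lists; red is higher in KO, blue lower, grey not called, black bars are list medians and the dashed line the median of all genes tested. Lysosomal lists have medians between 0.03 and 0.09, and the macrophage list lies to the right at 1.35.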

How the data were processed

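PolyA RNA of 3 KO and 3 WT samples had been sequenced. Tools listed in the submitters' processing notes are StringTie 1.3.4d, HISAT2 2.0.4 and cutadapt 1.9; the build listed there is human, while the identifiers in the table are of mouse. The authors deposited whole-number counts per gene and FPKM, per the file headers; the counting method and the strand setting were not given in the sources used here. Deposited gene coordinates were not printed because their build was not settled.

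The two-sided quasi-likelihood test of edgeR 4.0.16 (R 4.3.3) was run on genes kept by filterByExpr, with TMM scaling and genotype as the sole term, and Benjamini-Hochberg adjustment over all 18221 genes tested and a threshold of 0.05. The SE of a log2 change was its size divided by the root of the F statistic. Alternatives used DESeq2 1.42.0 and limma 3.58.1 on log2(FPKM + 1). The scripts were tested on simulated counts of 18221 genes. There edgeR recovered 18 of 50 planted changes of 1.25-fold and 37 of 50 of 1.5-fold, so small changes can go uncalled. False calls made up 6.92% of the calls of edgeR, 14.2% of those of DESeq2 and 9.2% of those of limma. Changes were planted in a far smaller part of the genes than the 22.9% called in the data. The rates of recovery and of false calls therefore need not hold for the lysosomal genes. Intervals and SDs cover the spread between these libraries. Depth was 61461870 to 76159034 counts per library. Replicates differed by 6.05 to 7.08 times counting noise at the median, so no library was a mere resequencing of another. This does not tell separate animals or cultures from separate preparations of the same RNA. Same-numbered replicates did not deviate together (correlations -0.04, -0.03 and -0.01), so no pairing was used.

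The genes and lists were chosen with earlier results of these data known. All 37 genes are named, those called and the 3 transcription factors with every library's value. From the other lysosomal lists the up to 4 called genes of lowest p are named. For marker lists the up to 3 of lowest p were planned, but this was not carried through. No fat, muscle, endothelial or mitochondrial gene is named, and of the osteoblast markers values are given for Col1a2 and Bglap only. M6pr, Bglap, Ocstamp and Atp6v0c-ps2 were chosen after their values were seen. Of the listed symbols, 10 were not matched in the table, including the 4 haemoglobin genes. The other marker lists counted as follows: of 7 fat genes 6 fell, of 6 muscle genes tested 3 fell, of 4 endothelial genes 2 fell, and of 9 mitochondrial transcripts 1 fell. Median log2 changes of these lists were -3.50, -2.20, -0.76 and -0.07 in that order. The fat and muscle medians were larger in size than the 1.35 of the macrophage list. Summed fat markers stood at 182 CPM in KO and 333 CPM in WT, and summed muscle markers at 4.73 and 7.56 CPM.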

Additional observations from a re-analysis of the deposited data

How the results depend on the processing

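Over 15 alternative fits, 13 of the 15 genes that rose and Naglu kept their calls in every fit that held them, and 16 of the 21 uncalled genes were called in none. Of these fits, edgeR without X and Y genes was added after seeing the data. The number that rose was 13 to 15 when a library was left out and the number that fell 1 to 2, the second being Ctsf without KO replicate 1 and Gaa without WT replicate 1. DESeq2 called 3 as lower (Naglu, Gaa and Lamp2). With a fold of at least 1.5, 1 rose and 0 fell, and over all genes 784 rose and 675 fell in place of 2048 and 2131. The median log2 change of the 37 genes was 0.03 to 0.06 with a library left out. The lowest was without WT replicate 1. The median was 0.0942 on library totals, 0.0916 in limma on log2(FPKM + 1) with or without a filter and 0.0948 on log2(FPKM + 0.1). In the limma fits on log2(FPKM + 1) with and without the filter and on log2(FPKM + 0.1), all genes called lower numbered 1267, 1246 and 1254. The median of all genes moved by at most 0.05 under any scaling. With a library left out, all genes called higher numbered 1588 to 1731 and lower 1712 to 1893. With a replicate block, 15 rose and 1 fell, and over all genes 1912 and 1976. The numbers pair nothing in the labels, and no library correlated best with its own number. Stk38 kept its call in every fit, at -0.64 to -0.58 with a library left out. Counts behind these genes were 410 or more, and the SE was wider at low counts: Tfeb (576 to 862 counts) had -0.25 ± 0.09 and was not called, while Asah1 (13436 to 19370 counts) had 0.25 ± 0.03 and was.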

Other observations

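Atp6v0c and Stk38 lie on the same chromosome, 17, with Atp6v0c 4.82 Mb before Stk38 in the deposited coordinates, whose build was not settled. The Atp6v0c counts are uncertain because of its near-identical copy, and the sums of gene and copy overlapped between KO and WT. Of the 430 genes tested within 10 Mb of Stk38, 25.1% were called, beside 25.7% on the rest of chromosome 17 and 22.8% on other chromosomes. Among the 37 lysosomal genes Neu1 lies in that window, 5.94 Mb after Stk38, and of the further lysosomal genes there Atp6v0c and the chloride transporter gene Clcn7 (-0.19 on the log2 scale, edgeR, Benjamini-Hochberg adjusted p = 0.0154) were lower while Ppt2, Atp6v0e, Atp6v1g2 and Gnptg were not called. Both Naglu, which fell, and Hgsnat, which rose, act in the breakdown of heparan sulfate, and among other enzymes of that pathway Sgsh and Ids rose (0.16 and 0.20 on the log2 scale, edgeR, Benjamini-Hochberg adjusted p = 0.0487 and 0.00286), while Gusb and Idua were not called (0.05 and -0.03). These genes were picked after their values were seen.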
